A study of Mus musculus with 24 samples.

Results

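The comparison set mouse neural progenitor cells (NPCs) with a long glutamine tract in huntingtin against NPCs with a short one. The libraries were chosen by their labelled cell type and genotype, with earlier results of these data known. They were 2 NPC libraries of the line titled Q92 and 2 of the line titled Q20, which makes 4 of the 24 libraries of the series. Each line is heterozygous for a CAG repeat knocked into Hdh, the mouse huntingtin gene now named Htt. The Q20 allele carries 20 repeats. The title gives the other allele 92 repeats, while the growth protocol and the names in the data table give it 89, and it is called Q92 here. The remaining genotypes were wild type, Htt knockout, Q50 and Q111, and each genotype was sequenced as NPCs and as the mouse embryonic stem cells (mESCs) from which NPCs were derived, with 2 libraries a group. The mESCs grew with serum and leukemia inhibitory factor on gelatin and irradiated mouse fibroblast feeder cells. For NPCs they spent 7 days in serum-free N2B27 medium and were then passaged on laminin in a medium with FGF and EGF. No treatment separates the groups. Each genotype is represented by 1 named line, and the labels do not say how many clones, derivations or cultures stand behind the 2 libraries. A difference between Q92 and Q20 therefore cannot be told apart from a difference between these 2 lines, and the p-values measure only the spread between libraries, which may be technical.

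Huntingtin is a large scaffold protein that binds vesicle, endocytic and transcriptional proteins, and an expanded glutamine tract in it causes Huntington's disease. Neural progenitors in FGF and EGF divide and keep radial glial genes on, and they can leave this state towards neurons, astrocytes or oligodendrocytes. Notch signalling, Sox factors and growth factor signalling hold the progenitor state, whereas loss of the pluripotency factors Pou5f1 and Nanog marks the exit from the embryonic stem cell state.

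The 2 alleles are labelled by the length of their CAG repeat. In the mouse reference the CAG tract lies in the first exon of Htt. On the plus strand of chromosome 5 of GRCm38, positions 34761907 to 34762002 (exon 1 of 67 in the GENCODE M21 transcript ENSMUST00000080036.2) run from the start codon past the CAG tract, whose longest pure run of 4 repeats at 34761967 to 34761978 is in capitals. It is the unmodified mouse sequence. The knock-in alleles themselves were not read here, so their sequence in and around the repeat may differ from it.
Htt, first codons: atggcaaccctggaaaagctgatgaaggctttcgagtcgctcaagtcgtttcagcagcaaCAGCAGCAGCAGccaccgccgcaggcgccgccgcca

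Htt transcript was measured at 157 and 155 CPM in the Q20 libraries and 184 and 168 CPM in the Q92 libraries. The Q92 values lay above the Q20 values by a small margin, and the change was not called (log2 change 0.17, SE 0.14, limma adjusted p = 0.384). Its sign depended on the scaling: the change was -0.07 under quantile normalization and -0.05 with all columns rescaled to a common total. In mESCs the change was -0.41, also not called (limma adjusted p = 1). Gene-level values do not separate the knock-in allele from the unmodified one.

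Library depth was 72464779 and 84011328 reads assigned to genes in Q20, and 63644331 and 67570788 in Q92. Values are read counts relative to library size (CPM), scaled by the authors, and changes are Q92 minus Q20 on the log2(CPM + 1) scale, which understates changes of low genes. Of 13206 genes tested, 3407 were called at an adjusted p under 0.05 (limma, 25.8% of those tested). Of these, 1305 were higher in Q92 (9.88%) and 2102 were lower (15.9%). The excess of lower calls held among larger changes and depended on the fit among smaller ones. Calls of at least 2-fold numbered 481 higher and 1528 lower. A fit to the Q20 and Q92 libraries alone called 3133 higher and 3027 lower, among these 714 and 1712 were at least 2-fold, and a fit to the 8 knock-in libraries called 3344 higher and 3201 lower. A filter on a mean of 5 CPM left 1046 higher and 1031 lower. At least 4-fold changes were found in 582 called falls and 102 called rises, and at least 16-fold changes in 70 falls and 8 rises. The column totals differ between the lines, so a common total moved the median change of all genes from 0.06 to -0.14. The split of calls then became 693 higher and 2739 lower, so the direction of small changes rests on the scaling. Without any 1 of the 4 libraries, where the lone library is assumed to vary like the other groups, there were 1618 to 1882 calls. Of 154 called genes given values here, 36 lost the call whichever library was left out, among them Ccnd1, Fem1b, Apln, Tmem173, Mest, Plk2, Tsnax, Hes5, Hey2 and Nes. With 2 libraries against 2, a two-sided exact permutation test of a single gene cannot go below p = 0.333.

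**Figure D1:**
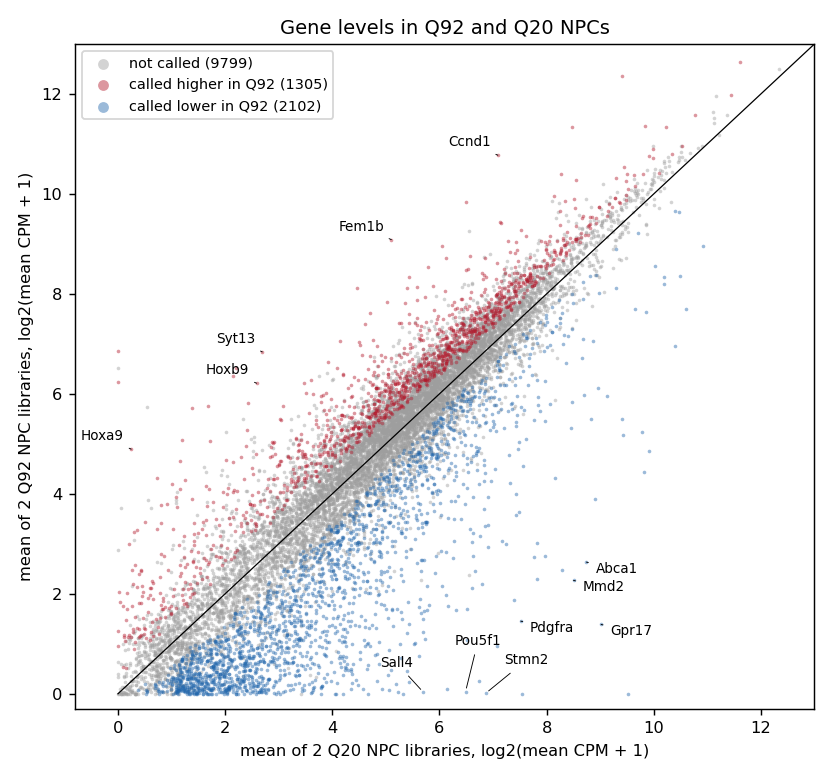
Mean level of each tested gene in the 2 Q20 NPC libraries (horizontal) and the 2 Q92 NPC libraries (vertical), both as log2(mean CPM + 1); red and blue points are the 1305 genes called higher and 2102 called lower, and the line marks equal levels. The blue points reach farther from the line than the red ones, with Gpr17, Pou5f1 and Stmn2 at the lower edge and Ccnd1 and Fem1b far above it.

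Genes of neural progenitors were abundant in both lines labelled NPC. Of 19 radial glia and neural stem genes tested, 4 were called higher in Q92 (21.1%) and 3 lower (15.8%). Of all genes tested 9.88% were called higher and 15.9% lower, so the share called lower was that of the background. The list's median change was -0.11, beside 0.06 for all genes. Tnc, a tenascin gene of the radial glial matrix, read 646 and 702 CPM in the Q20 libraries and 5212 and 5244 CPM in the Q92 libraries. Both Q92 values were several times both Q20 values (log2 change 2.95, SE 0.32, limma adjusted p = 0.000334). Nes, the intermediate filament nestin, read 353 and 393 CPM in the Q20 libraries and 1273 and 1225 CPM in the Q92 libraries (log2 change 1.74, SE 0.41, limma adjusted p = 0.0164), and the other 8 NPC libraries lay between them at 470.1 to 1105 CPM. The filament gene Vim (log2 change 1.51) and the adhesion gene Cdh2 (0.63) were also called higher. Called falls in the same list were Hes5, a Notch target described below, the membrane protein gene Prom1 at 93.1 and 97.3 CPM in the Q20 libraries and 24.9 and 22.97 CPM in the Q92 libraries (log2 change -1.95, SE 0.14, limma adjusted p = 3.4e-05), and the glutamate transporter gene Slc1a3 (log2 change -0.84). Fabp7 and Ptprz1, further progenitor genes, were high in both lines: Fabp7 read 1194 and 1266 CPM in the Q20 libraries and 1817 and 1593 CPM in the Q92 libraries and Ptprz1 read 959 and 1103 CPM in the Q20 libraries and 1048 and 861 CPM in the Q92 libraries. Neither was called (limma adjusted p = 0.314 and 0.838).

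Most astrocyte genes were lower in Q92. Of 21 tested, 14 were called lower and 0 higher, with a median change of -2.53. Without any 1 library 7 to 10 were called lower. Both Q92 libraries lay below both Q20 libraries for 20 members, as they did for 35.7% of all genes tested. Summed over the list, the Q20 libraries held 8347 and 7367 CPM and the Q92 libraries 1452 and 1787 CPM. Aldh1l1, a folate enzyme and astrocyte marker, read 235 and 215 CPM in the Q20 libraries and 3.75 and 4.10 CPM in the Q92 libraries (log2 change -5.52, SE 0.37, limma adjusted p = 2.4e-05). The lipid carrier gene Apoe read 976 and 820.3 CPM in the Q20 libraries and 16.9 and 24.6 CPM in the Q92 libraries (log2 change -5.39, SE 1.09, limma adjusted p = 0.00863). For Slc1a2, the glutamate transporter of mature astrocytes, the levels were 515 and 439.7 CPM in the Q20 libraries and 13.3 and 14.6 CPM in the Q92 libraries (log2 change -5.00, SE 0.75, limma adjusted p = 0.00188). In all 3 genes the groups were far apart. The water channel gene Aqp4 changed by -5.25 and the filament gene Gfap by -4.97. Acsbg1, a fatty acid ligase gene, had both Q92 libraries above both Q20 libraries, by 0.36 (not called, limma adjusted p = 0.114). In bulk libraries, fewer cells of a type and less RNA per cell cannot be told apart. The same list also varied inside a genotype: wild-type replicate 1 held 8305 CPM and wild-type replicate 2 held 4232. In the knockout the pair was 5939 and 3047 CPM. The Q111 libraries, at 1949 and 1904 CPM, lay near Q92, and the Q50 libraries, at 7516 and 6027 CPM, lay near Q20.

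Most genes of the oligodendrocyte lineage list were lower in Q92. Gpr17, a receptor of committed oligodendrocyte precursors, read 546 and 489 CPM in the Q20 libraries and 1.39 and 1.84 CPM in the Q92 libraries. The higher mean was 320.0 times the lower one (log2 change -7.63, SE 1.10, limma adjusted p = 0.00156), and the remaining NPC libraries covered 7.37 to 116 CPM. Pdgfra, the growth factor receptor that marks oligodendrocyte precursors, read 162 and 203 CPM in the Q20 libraries and 1.27 and 2.20 CPM in the Q92 libraries (log2 change -6.08, SE 0.47, limma adjusted p = 5.12e-05). It stood at 60.6 to 264 CPM in the other 8 libraries, so the Q92 line alone was low. Mbp, the myelin basic protein gene, read 47.6 and 36.5 CPM in the Q20 libraries and 0.198 and 0.156 CPM in the Q92 libraries (log2 change -5.18, SE 0.25, limma adjusted p = 5.05e-06), and Enpp6, a gene of newly formed oligodendrocytes, read 35.6 and 28.9 CPM in the Q20 libraries and 0.0495 and 0.0469 CPM in the Q92 libraries (log2 change -4.98, SE 0.17, limma adjusted p = 8.06e-07). The other 8 libraries held 0.750 to 25.1 CPM of Mbp and 0.123 to 10.5 CPM of Enpp6, so the Q20 line lay above their range and the Q92 line below it. Of the 10 called list members, 5 had both lines outside the range of the other 8 libraries. Of 13 list members tested, 9 were called lower and 1 higher, with a median change of -2.06. The called rise was Cspg4, the NG2 proteoglycan gene, at 5.17 and 4.26 CPM in the Q20 libraries and 20.8 and 19.5 CPM in the Q92 libraries (log2 change 1.89, SE 0.23, limma adjusted p = 0.000679). Olig2, a transcription factor of the lineage, was also higher in both Q92 libraries, at 31.2 and 60.5 CPM in the Q20 libraries and 150.2 and 193 CPM in the Q92 libraries, and was not called (limma adjusted p = 0.0601). The lineage list therefore did not move in 1 direction.

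Neuronal genes fell in part. Of 21 tested, 12 were called lower, 2 higher, and the median change was -1.16. Stmn2, a microtubule regulator of growing axons, read 103 and 128 CPM in the Q20 libraries and 0.0165 and 0 CPM in the Q92 libraries (log2 change -6.85, SE 0.16, limma adjusted p = 1.13e-07), and the other 8 libraries held 0.0265 to 5.51 CPM. Stmn2 was also abundant in mESCs, at 276 and 232 CPM in Q20 and 339 and 374 CPM in Q92. Its RNA is therefore not a mark of neurons alone in this series. Dcx, the doublecortin gene of young neurons, read 38.6 and 52.2 CPM in the Q20 libraries and 1.06 and 0.969 CPM in the Q92 libraries (log2 change -4.51, SE 0.35, limma adjusted p = 5.02e-05), and the neurofilament gene Nefl read 32.8 and 22.4 CPM in the Q20 libraries and 0.594 and 0.891 CPM in the Q92 libraries (log2 change -4.02, SE 0.51, limma adjusted p = 0.00077). For Tubb3, a neuronal tubulin gene, the Q20 libraries themselves were uneven, at 32.6 and 121 CPM, against 6.64 and 7.93 CPM in Q92. Map2, a microtubule protein gene, and Elavl4, a neuronal RNA-binding protein gene, were called higher in Q92, by 0.63 and 1.25. Map2 read 599 and 646 CPM in the Q20 libraries and 1029.6 and 897 CPM in the Q92 libraries and held much of the list's sum. The summed level of the list was 1224 and 1344 CPM in Q20 and 1558 and 1419.6 CPM in Q92, in the opposite direction to the median.

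Mesenchymal and fibroblast genes were also lower in Q92. Of 21 tested, 16 were called lower and 1 higher, with a median of -1.91. The fibrillar collagen gene Col3a1 read 239.8 and 194 CPM in the Q20 libraries and 5.27 and 6.10 CPM in the Q92 libraries (log2 change -5.02, SE 0.16, limma adjusted p = 8.06e-07), and Col1a2 read 33.1 and 25.4 CPM in the Q20 libraries and 0.0495 and 0.0782 CPM in the Q92 libraries (log2 change -4.82, SE 0.17, limma adjusted p = 1.13e-06). Neither Q20 library set the top of the range: the Q50 libraries held 608 and 630.0 CPM of Col3a1 and 153 and 159 CPM of Col1a2. Col6a1 and Col6a2, subunits of collagen VI, changed by -4.41 and -3.86. Fbn1, the microfibril protein gene, was the called rise, and the list summed to 676 and 579 CPM in Q20 and 322 and 309.6 CPM in Q92. The contractile list had 5 of 13 called lower and 1 higher, with a median of -1.04 that became 0.25 over the 5 members with a mean of at least 5 CPM. Its summed level was higher in Q92, at 2145 and 2207 CPM beside 1507 and 1489 CPM in Q20, so the called falls were not falls of the list's summed level. Des, the muscle filament gene desmin, read 11.05 and 8.66 CPM in the Q20 libraries and 0 and 0.0782 CPM in the Q92 libraries (log2 change -3.38, SE 0.20, limma adjusted p = 1.36e-05), and Myl9 and Tpm2 changed by -2.87 and -2.64. Among 8 neural crest genes 4 were called lower and 0 higher, and the called ones were low in Q20 as well. The crest and neural fold factor genes Zic1 and Pax3 changed by -2.10 and -1.93.

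Several genes of the embryonic stem cell state were present in the Q20 NPC libraries and nearly absent from Q92. Pou5f1, which encodes Oct4, read 90.1 and 87.4 CPM in the Q20 libraries and 0 and 0.0625 CPM in the Q92 libraries (log2 change -6.44, SE 0.11, limma adjusted p = 3.65e-08). The gene lies at chromosome 17, 35506018 to 35510772, plus strand in GRCm38. Lin28a, an RNA-binding protein gene that blocks let-7 maturation, read 70.8 and 69.1 CPM in the Q20 libraries and 0.0826 and 0.0469 CPM in the Q92 libraries (log2 change -6.06, SE 0.12, limma adjusted p = 4.32e-08), and the zinc finger factor gene Sall4 read 47.1 and 54.6 CPM in the Q20 libraries and 0.0495 and 0 CPM in the Q92 libraries (log2 change -5.66, SE 0.12, limma adjusted p = 5.19e-08). In the other 8 NPC libraries these genes held at most 0.405, 0.405 and 0.135 CPM, so the Q20 line alone stood out. Nanog followed at 12.996 and 13.7 CPM in the Q20 libraries and 0.281 and 0.203 CPM in the Q92 libraries (log2 change -3.53, SE 0.23, limma adjusted p = 2.35e-05). Dnmt3b, a DNA methyltransferase gene of early embryonic cells, read 210.1 and 241 CPM in the Q20 libraries and 7.64 and 6.57 CPM in the Q92 libraries (log2 change -4.81, SE 0.24, limma adjusted p = 5.59e-06), again with 3.61 to 7.28 CPM elsewhere. Of 8 pluripotency genes tested, 4 were called lower and 3 higher. The rises were Klf4, Klf2 and Tbx3, and Klf4 read 3.19 and 3.83 CPM in the Q20 libraries and 13.2 and 18.5 CPM in the Q92 libraries (log2 change 1.89, SE 0.37, limma adjusted p = 0.00726). The list's median was -1.54, between these opposed sets. Of 4 early lineage genes 3 were called lower and 0 higher. Eomes, a T-box gene of early mesendoderm, read 3.27 and 6.86 CPM in the Q20 libraries and 0.0495 and 0 CPM in the Q92 libraries (log2 change -2.50, SE 0.26, limma adjusted p = 0.000279), and Krt8, an epithelial keratin gene, changed by -1.88. Nxf3, an X-linked mRNA export gene usually silent outside the germ line, read 132 and 136 CPM in the Q20 libraries and 1.09 and 0.782 CPM in the Q92 libraries (log2 change -6.13, SE 0.16, limma adjusted p = 2.01e-07), and 3 of 5 genes of that silenced class were called lower and 0 higher. The summed pluripotency list stood at 227 and 231 CPM in Q20 and 20.3 and 34.8 CPM in Q92. The part of remaining undifferentiated cells in other falls was not tested.

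**Figure D2:**
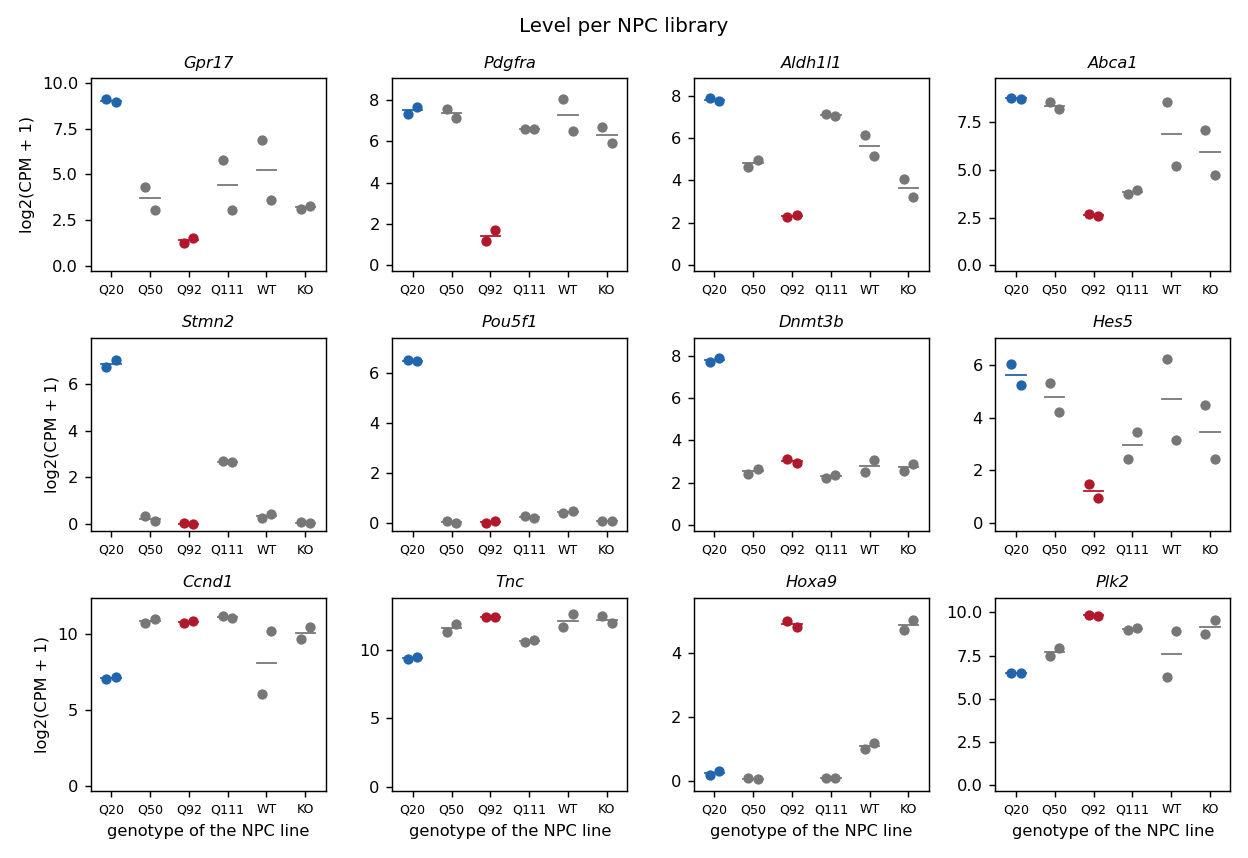
Level of 12 genes as log2(CPM + 1) in each of the 12 NPC libraries; points are libraries (replicate 1 left, 2 right), short lines are group means, and Q20 is blue and Q92 red. Pou5f1, Stmn2 and Dnmt3b are high in Q20 alone, Pdgfra is low in Q92 alone, and Ccnd1 and Abca1 differ between the 2 wild-type libraries.

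Several Hox genes were higher in Q92. Hoxa9, a posterior homeobox gene at chromosome 6, 52223100 to 52231089, minus strand, read 0.137 and 0.236 CPM in the Q20 libraries and 30.6 and 26.9 CPM in the Q92 libraries (log2 change 4.65, SE 0.16, limma adjusted p = 1.13e-06). The knockout libraries were as high, at 24.9 and 31.7 CPM, and the other 3 genotypes held 0.0353 to 1.25 CPM. Hoxb9 read 4.47 and 5.54 CPM in the Q20 libraries and 73.9 and 72.5 CPM in the Q92 libraries (log2 change 3.63, SE 0.66, limma adjusted p = 0.00493), and Hoxa10 and Hoxc6 changed by 2.78 and 2.03. Of 20 Hox genes tested, 9 were called higher and 0 lower, with a median of 1.12. The called members lay in the Hoxa, Hoxb, Hoxc and Hoxd clusters, and neighbours within a cluster are not independent of each other. Some anterior factors were lower. Otx2, a forebrain and midbrain homeobox gene, read 14.8 and 16.5 CPM in the Q20 libraries and 0 and 0 CPM in the Q92 libraries and was called lower (limma adjusted p = 2.78e-05). Its 2 Q92 values are 0, so no fold is given. The related Otx1 changed by -1.77. The forebrain list as a whole had 3 called lower and 1 higher of 9, and En2, an engrailed gene of the midbrain and hindbrain, changed by 0.90.

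Other large rises came from several gene families. Papln, an extracellular matrix gene, read 1.43 and 1.81 CPM in the Q20 libraries and 48.4 and 54.4 CPM in the Q92 libraries (log2 change 4.32, SE 0.59, limma adjusted p = 0.00119), and Apln, which encodes the peptide ligand apelin, read 3.60 and 3.66 CPM in the Q20 libraries and 95.5 and 86.7 CPM in the Q92 libraries (log2 change 4.31, SE 1.19, limma adjusted p = 0.031). Syt13, a synaptotagmin gene, changed by 4.15, Tmem173, which encodes the innate immune adaptor STING, by 4.21, and Cemip, a hyaluronan-degrading protein gene, by 3.57. Fndc1, a fibronectin-domain gene, and Olfml3, a secreted olfactomedin-like gene, rose by 4.07 and 3.88. Fem1b, a ubiquitin ligase substrate receptor gene, read 33.8 and 32.9 CPM in the Q20 libraries and 542 and 543 CPM in the Q92 libraries (log2 change 3.98, SE 0.92, limma adjusted p = 0.015). It held 33.1 and 428 CPM in the 2 wild-type libraries and 29.9 to 46.1 CPM in the knockout, Q50 and Q111, so the same step separated the replicates of 1 genotype. Among the falls outside the lists, Agt, the angiotensinogen gene, read 137 and 75.7 CPM in the Q20 libraries and 0.0826 and 0.297 CPM in the Q92 libraries (log2 change -6.44, SE 0.67, limma adjusted p = 0.000259). Mmd2, the lipase gene Pla2g7 and Enpp2, which encodes autotaxin, changed by -6.25, -5.82 and -5.54.

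Cell cycle genes read higher in Q92, and whether they passed the test depended on which libraries set the spread. Ccnd1, the cyclin D1 gene that drives entry into S phase, read 130.2 and 140.3 CPM in the Q20 libraries and 1692 and 1808 CPM in the Q92 libraries (log2 change 3.68, SE 1.05, limma adjusted p = 0.0349). It lies at chromosome 7, 144929931 to 144939925, minus strand. Q20 and wild-type replicate 1, at 63.4 CPM, were low, and the remaining NPC libraries held 809 to 2298 CPM. Of 30 DNA replication genes tested, both Q92 libraries exceeded both Q20 libraries in 29, and of 27 mitosis genes in 26. The same held for 41.6% of all genes tested. The medians were 0.90 and 0.78. Only Pola1, the catalytic subunit gene of DNA polymerase alpha, was called in the replication list by limma, at 54.8 and 63.1 CPM in the Q20 libraries and 215 and 195 CPM in the Q92 libraries (log2 change 1.78, SE 0.43, limma adjusted p = 0.0178), and no mitosis gene was. In the mitosis list 5 genes had an unadjusted p under 0.05 (limma), and edgeR and DESeq2 on the recovered reads called 0 and 3 higher. In the replication list these tools called 1 and 2. The 2 most abundant mitosis genes were Top2a, a DNA topoisomerase gene, at 780.1 and 803 CPM in the Q20 libraries and 1299 and 1221 CPM in the Q92 libraries (limma adjusted p = 0.334), and the proliferation marker gene Mki67, at 501 and 554 CPM in the Q20 libraries and 1289 and 1074 CPM in the Q92 libraries (limma adjusted p = 0.163). With the spread taken from the 8 knock-in libraries, 27 replication and 23 mitosis genes were called higher and 0 lower, beside 25.3% of all genes called higher in that fit. With the 4 libraries alone the counts were 25 and 24 (limma, 23.7% of all genes). The wild-type and knockout pairs carry this spread: the replication list summed to 1431 and 5418 CPM in the wild-type libraries and 2788 and 6324 CPM in the knockout libraries. Q20 held 2341 and 2454 CPM and Q92 4916 and 4639 CPM. The step between Q20 and Q92 was within the range covered by 2 libraries of 1 genotype, and Q111 exceeded both, at 6990.4 and 7092 CPM. Cdk4 and the cyclin-dependent kinase inhibitor gene Cdkn1a were called higher, by 0.51 and 1.82, among 17 cyclins, kinases and inhibitors with 3 called higher and 0 lower.

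**Figure D3:**
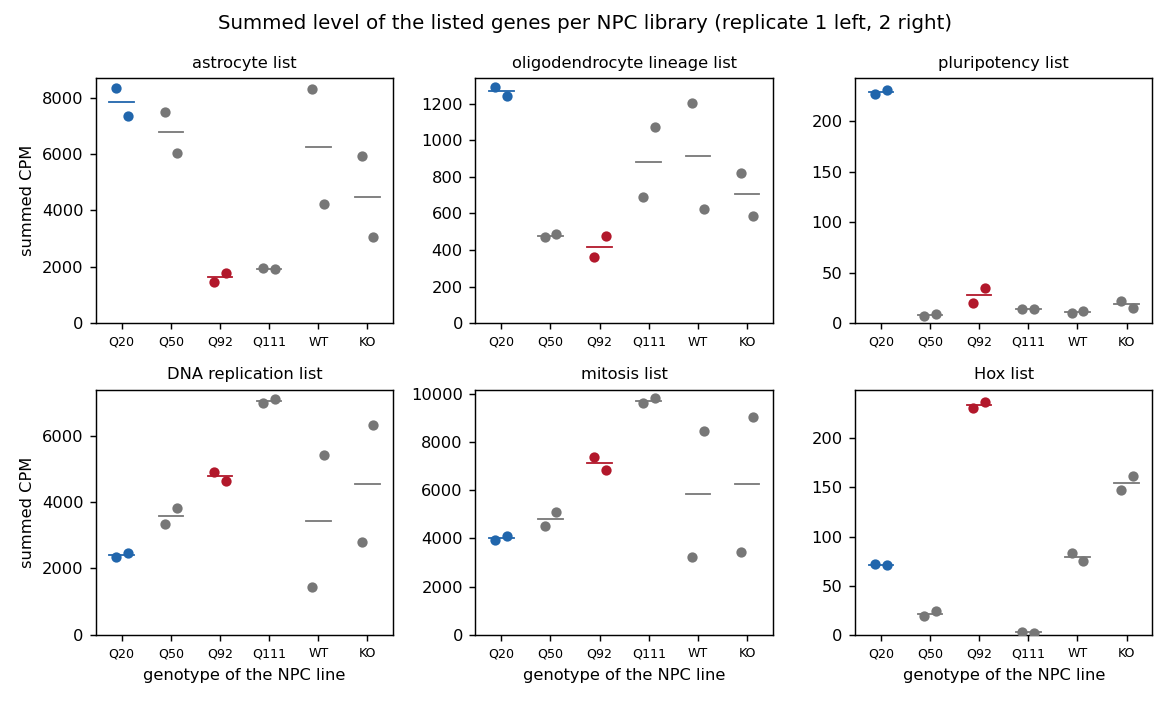
Summed CPM of the genes of 6 lists in each NPC library (points; replicate 1 left, 2 right; short lines are group means), with Q20 in blue and Q92 in red. The replication sums of the wild-type pair, 1431 and 5418 CPM, span the Q20 and Q92 values, while the pluripotency sum is high only in Q20, at 227 and 231 CPM, and the Hox sum is highest in Q92, at 231 and 237 CPM.

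Growth factor signalling genes were called in both directions. Of 25 FGF and EGF pathway genes tested, 4 were called higher (16%) and 4 lower (16%), beside 9.88% and 15.9% of all genes tested. The share called lower was that of the background, and the share called higher was above it. Without any 1 library these counts were 0 and 3. Among ligands, Areg, an EGF receptor ligand gene, read 0.137 and 0.322 CPM in the Q20 libraries and 8.34 and 8.51 CPM in the Q92 libraries (log2 change 2.94, SE 0.66, limma adjusted p = 0.0135), and Tgfa, another such ligand gene, read 20.997 and 21.9 CPM in the Q20 libraries and 4.92 and 4.16 CPM in the Q92 libraries (log2 change -2.02, SE 0.27, limma adjusted p = 0.00108). Among receptors, Fgfr3 read 256 and 197 CPM in the Q20 libraries and 54.8 and 66.1 CPM in the Q92 libraries (log2 change -1.89, SE 0.49, limma adjusted p = 0.0246), and for Fgfr1 no change was called, with 127 and 126 CPM in the Q20 libraries and 121 and 129 CPM in the Q92 libraries (limma adjusted p = 0.944). Dusp6, a phosphatase gene that ERK signalling induces and that feeds back on it, read 58.1 and 57.2 CPM in the Q20 libraries and 272 and 297 CPM in the Q92 libraries (log2 change 2.28, SE 0.68, limma adjusted p = 0.0398), and the transcription factor gene Etv5 changed by 1.40. Spry1, a feedback inhibitor gene, differed more between the 2 Q92 libraries than between the groups, at 3.62 and 0.472 CPM in the Q20 libraries and 1.47 and 42.8 CPM in the Q92 libraries.

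More Notch pathway genes were called lower than higher. Notch receptors are activated by Delta and Jagged ligands on neighbouring cells, and the cleaved receptor then joins the DNA-binding protein Rbpj on target genes of the Hes and Hey families. Among ligands, Dll3 read 87.4 and 79.7 CPM in the Q20 libraries and 10.2 and 10.5 CPM in the Q92 libraries (log2 change -2.90, SE 0.45, limma adjusted p = 0.00235), and Jag2 read 9.29 and 8.93 CPM in the Q20 libraries and 0.578 and 0.406 CPM in the Q92 libraries (log2 change -2.76, SE 0.15, limma adjusted p = 9.35e-06). The receptor genes Notch1 and Notch2 were not called, with changes of 0.09 and 0.20. Among targets, Hes5 read 64.1 and 37.3 CPM in the Q20 libraries and 1.77 and 0.922 CPM in the Q92 libraries (log2 change -4.44, SE 1.02, limma adjusted p = 0.0147), and Hey2 read 12.04 and 10.1 CPM in the Q20 libraries and 0.363 and 0.516 CPM in the Q92 libraries (log2 change -3.06, SE 0.74, limma adjusted p = 0.0182). Hey1 and Heyl were called lower too, by -1.93 and -1.48, whereas Hes1, at 23.1 and 24.2 CPM in the Q20 libraries and 14.2 and 15.3 CPM in the Q92 libraries, was not (limma adjusted p = 0.35). The target genes Hes5 and Hey2 also differed between wild-type replicates, at 74.5 and 7.89 CPM and 9.98 and 0.503 CPM. In the whole list 8 of 23 members were called lower and 1 higher (Lfng, a glycosyltransferase gene that modifies Notch), with a median of -0.48. Without any 1 library 3 to 4 were called lower. RefSeq promoter windows (build GRCm38.p6) were found for 20 of the 24 listed genes. The 250 bases before the start site of the 2 target genes with the largest falls follow, 5′ to 3′ on the gene's strand, because these hold the letters that Rbpj recognises. Capitals mark GTGGGAA or its reverse complement TTCCCAC.
Hes5, chr4:154960673-154960922, plus strand: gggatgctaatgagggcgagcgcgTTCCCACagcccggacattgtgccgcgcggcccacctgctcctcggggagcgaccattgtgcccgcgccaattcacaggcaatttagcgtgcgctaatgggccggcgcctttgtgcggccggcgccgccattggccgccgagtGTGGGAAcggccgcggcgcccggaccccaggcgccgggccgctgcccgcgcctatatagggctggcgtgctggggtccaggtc
Hey2, chr10:30842784-30843033, minus strand: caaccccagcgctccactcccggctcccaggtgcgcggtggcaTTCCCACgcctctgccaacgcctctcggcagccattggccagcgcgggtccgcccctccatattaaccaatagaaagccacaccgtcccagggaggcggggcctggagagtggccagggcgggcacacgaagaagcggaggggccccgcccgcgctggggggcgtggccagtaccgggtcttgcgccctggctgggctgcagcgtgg
The Hes5 window held 2 matches, starting 226 and 83 bases before the start site, and the Hey2 window held 1, starting 207 bases before it. A match in either orientation was present in 5.42% of 32851 windows of this length, in 3 of the 26 windows of the listed genes, and 2 or more in 0.161%. A match describes the letters only and does not show binding.

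The other developmental pathways moved in part. Of all genes tested, 15.9% were called lower and 9.88% higher. In the same order, the shares were 36.4% and 0% for BMP, 34.8% and 8.70% for Wnt and 8.33% and 25% for Hedgehog genes. Of 22 BMP pathway genes, 8 were called lower (4 to 5 without any 1 library) and 0 higher, with a median of -0.69. The receptor gene Bmpr1b read 94.6 and 89.6 CPM in the Q20 libraries and 22.4 and 19.3 CPM in the Q92 libraries (log2 change -2.10, SE 0.47, limma adjusted p = 0.0134), and the feedback inhibitor gene Smad7 read 8.67 and 9.06 CPM in the Q20 libraries and 1.55 and 1.56 CPM in the Q92 libraries (log2 change -1.95, SE 0.36, limma adjusted p = 0.00539). Smad9, a signal transducer gene, changed by -1.80. The ligand gene Bmp4 read 1.18 and 1.92 CPM in the Q20 libraries and 0 and 0 CPM in the Q92 libraries and was called lower (limma adjusted p = 0.000237). In the Wnt list 8 of 23 were called lower and 2 higher. Dkk3, a secreted Dickkopf family member, read 20.004 and 19.4 CPM in the Q20 libraries and 0.809 and 1.16 CPM in the Q92 libraries (log2 change -3.39, SE 0.19, limma adjusted p = 1.09e-05). Sfrp1, a secreted Wnt antagonist gene, read 101 and 124 CPM in the Q20 libraries and 25.02 and 24.1 CPM in the Q92 libraries (log2 change -2.15, SE 0.19, limma adjusted p = 0.000116), and Lef1, a transcription factor of the pathway, changed by -2.56. Without low genes (mean of at least 5 CPM) the Wnt median turned from -0.19 to 0.06. Of 12 Hedgehog genes 3 were called higher and 1 lower, and the share called lower was below that of all genes. Cdon, a Hedgehog co-receptor gene, read 25.4 and 24.4 CPM in the Q20 libraries and 230.0 and 162 CPM in the Q92 libraries (log2 change 2.91, SE 0.43, limma adjusted p = 0.00188), and the signal transducer Smo changed by 0.68. The ligand gene Shh read 2.52 and 2.28 CPM in the Q20 libraries and 0.182 and 0.250 CPM in the Q92 libraries (log2 change -1.48, SE 0.10, limma adjusted p = 2.32e-05).

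Genes for making cholesterol and genes for transporting it changed in opposite directions where they were called. In the synthesis list 5 of 24 genes were called higher and 0 lower, with a median of 0.75. Without any 1 library 1 to 3 were called higher. Insig1, a sterol sensor gene that sterol shortage induces, read 45.7 and 48.4 CPM in the Q20 libraries and 227 and 239 CPM in the Q92 libraries (log2 change 2.28, SE 0.21, limma adjusted p = 0.000126). Hmgcs1, an early enzyme gene of the mevalonate pathway, read 644 and 739.6 CPM in the Q20 libraries and 1454 and 1514 CPM in the Q92 libraries (log2 change 1.10, SE 0.31, limma adjusted p = 0.0323), and Sqle and Dhcr7, later enzyme genes, changed by 1.21 and 1.48. With the spread of the 8 knock-in libraries 19 synthesis genes were called higher. The list also differed between replicates, at 3468 and 5947 CPM in wild type and 3039 and 6542 CPM in the knockout, beside 2964 and 3356 CPM in Q20 and 5934 and 6426 CPM in Q92. In the transport list 6 of 13 were called lower and 0 higher. Abca1, the transporter gene that loads cholesterol onto apolipoproteins, read 432 and 424 CPM in the Q20 libraries and 5.37 and 5.05 CPM in the Q92 libraries (log2 change -6.11, SE 1.02, limma adjusted p = 0.00328). Abcg1, a related transporter gene, read 3.75 and 3.54 CPM in the Q20 libraries and 0.0826 and 0.109 CPM in the Q92 libraries (log2 change -2.08, SE 0.18, limma adjusted p = 9.92e-05), and the receptor gene Lrp1 changed by -1.81. Apoe, counted here and among astrocyte genes, is described above. Abca1 was also uneven within genotypes, at 382 and 36.4 CPM in wild type and 135 and 26.03 CPM in the knockout.

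Many general splicing factors were higher in Q92. Of 29 hnRNP and SR protein genes, which bind pre-mRNA and steer splice site choice, 12 were called higher and 0 lower, with a median of 0.63. Srsf6 read 125 and 91.9 CPM in the Q20 libraries and 251 and 250.1 CPM in the Q92 libraries (log2 change 1.22, SE 0.16, limma adjusted p = 0.00104), and Hnrnpf read 83.9 and 91.4 CPM in the Q20 libraries and 218 and 209 CPM in the Q92 libraries (log2 change 1.28, SE 0.30, limma adjusted p = 0.0173). Hnrnpa2b1 and Srsf5 changed by 0.87 and 0.85. Without any 1 library 2 to 5 were called higher, and the count depended on scale: 6 were called higher under quantile normalization and 8 with a common column total, where 1 was called lower. Tissue-specific splicing regulators split, with 6 of 24 called higher and 5 lower. Mbnl1, a muscleblind gene whose protein is sequestered by expanded repeats in myotonic dystrophy, read 62.7 and 69.7 CPM in the Q20 libraries and 198 and 164 CPM in the Q92 libraries (log2 change 1.43, SE 0.27, limma adjusted p = 0.00616). Rbm24, a regulator gene of muscle splicing, read 13.3 and 12.2 CPM in the Q20 libraries and 62.8 and 60.2 CPM in the Q92 libraries (log2 change 2.18, SE 0.35, limma adjusted p = 0.00288), and the neuronal regulator gene Khdrbs2 read 4.97 and 5.47 CPM in the Q20 libraries and 0.0165 and 0.0313 CPM in the Q92 libraries (log2 change -2.60, SE 0.31, limma adjusted p = 0.000548). Among 15 genes of proteins linked to circular RNA formation or turnover, 6 were called higher (0 to 2 without any 1 library) and 0 lower. The RNA helicase gene Dhx9 read 156 and 191 CPM in the Q20 libraries and 385 and 300.1 CPM in the Q92 libraries (log2 change 0.97, SE 0.19, limma adjusted p = 0.00773).

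Several targets of p53 and chaperone genes were higher. Of 19 p53 pathway genes, 8 were called higher (3 to 4 without any 1 library) and 1 lower, with a median of 0.91. Plk2, a polo-like kinase gene, read 87.9 and 89.8 CPM in the Q20 libraries and 926 and 895 CPM in the Q92 libraries (log2 change 3.34, SE 0.70, limma adjusted p = 0.00995), the death receptor gene Eda2r read 43.6 and 50.7 CPM in the Q20 libraries and 183 and 183 CPM in the Q92 libraries (log2 change 1.94, SE 0.13, limma adjusted p = 2.9e-05), and Cdkn1a, which encodes p21, read 20.02 and 18.8 CPM in the Q20 libraries and 65.2 and 77.2 CPM in the Q92 libraries. The Eda2r values lay above the other 8 libraries, at 73.5 to 107 CPM. Trp53 itself changed by 0.95, the pro-apoptotic gene Bax by 1.37 and the p53 inhibitor gene Mdm2 by 0.73. Perp was the called fall, at 3.52 and 10.3 CPM in the Q20 libraries and 1.37 and 1.50 CPM in the Q92 libraries (log2 change -1.55, SE 0.37, limma adjusted p = 0.0169). Among 23 chaperone genes 7 were called higher (2 to 3 without any 1 library) and 2 lower. Hsph1, an Hsp110 family gene, read 58.9 and 61.8 CPM in the Q20 libraries and 177 and 163 CPM in the Q92 libraries (log2 change 1.48, SE 0.16, limma adjusted p = 0.000315), and Hsf1, the heat shock factor gene, changed by 0.86. The small heat shock genes Hspb8 and Hspb1 were the falls, by -1.99 and -0.82. Of 21 ATF4 and endoplasmic reticulum stress genes only the chaperone gene Hspa5 was called, at 429 and 461 CPM in the Q20 libraries and 793 and 694 CPM in the Q92 libraries (log2 change 0.74, SE 0.23, limma adjusted p = 0.0449). Its list median was -0.17, in the opposite direction.

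Genes of huntingtin partners were called in both directions. Among 20 of them 2 were called higher (10%) and 2 lower (10%), beside 9.88% and 15.9% of all genes tested. Hip1, the clathrin adaptor gene first named as a huntingtin partner, read 304 and 309 CPM in the Q20 libraries and 1406 and 1306 CPM in the Q92 libraries (log2 change 2.14, SE 0.28, limma adjusted p = 0.000883). Its paralog Hip1r was called lower, at 74.6 and 66.6 CPM in the Q20 libraries and 26.5 and 27.8 CPM in the Q92 libraries (log2 change -1.34, SE 0.15, limma adjusted p = 0.000369). Sh3gl3, an endophilin gene, read 54.9 and 44.3 CPM in the Q20 libraries and 5.47 and 5.33 CPM in the Q92 libraries (log2 change -2.98, SE 0.21, limma adjusted p = 2.91e-05). Neurotrophin receptor genes were lower. Of 8 listed genes tested 4 were called lower (2 to 3 without any 1 library) and 0 higher. Ntrk2, the BDNF receptor gene, read 186 and 158 CPM in the Q20 libraries and 10.7 and 11.1 CPM in the Q92 libraries (log2 change -3.85, SE 0.75, limma adjusted p = 0.00712), and Ntrk3, the neurotrophin-3 receptor gene, read 66.3 and 53.6 CPM in the Q20 libraries and 13.7 and 17.8 CPM in the Q92 libraries (log2 change -1.87, SE 0.44, limma adjusted p = 0.0171). Both Q92 libraries were below all others for each gene. The 8 libraries of other genotypes held 37.3 to 359 CPM of Ntrk2 and 45.2 to 112 CPM of Ntrk3. Of 11 genes of the REST repressor complex 2 were called higher (18.2%, beside 9.88% of all genes tested) and 0 lower. Rcor1, a corepressor gene, read 24.3 and 28.3 CPM in the Q20 libraries and 47.7 and 55.3 CPM in the Q92 libraries (log2 change 0.94, SE 0.28, limma adjusted p = 0.0386). Among 14 repair and CAG modifier genes 2 were called higher (14.3%) and 0 lower. The REST and repair shares each rest on 2 called genes. The glycosylase gene Ogg1 read 14.5 and 10.9 CPM in the Q20 libraries and 22.3 and 24.8 CPM in the Q92 libraries (log2 change 0.85, SE 0.19, limma adjusted p = 0.012). In the list of 3 translin-related genes, Tsnax, which encodes trax, read 22.7 and 20.3 CPM in the Q20 libraries and 132 and 128 CPM in the Q92 libraries (log2 change 2.55, SE 0.66, limma adjusted p = 0.0235), and its neighbour Disc1 changed by 1.12. In the list of store-operated calcium entry genes 4 of 15 were called higher (26.7%) and 3 lower (20%). The endoplasmic calcium sensor gene Stim2 read 71.9 and 76.9 CPM in the Q20 libraries and 219 and 215 CPM in the Q92 libraries (log2 change 1.53, SE 0.29, limma adjusted p = 0.00603), and the channel gene Itpr3 changed by -1.48.

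Matrix and adhesion genes changed in both directions. In the basement membrane list 9 of 18 genes were called lower and 5 higher. Col4a1 and Col4a2, which are neighbours and encode the most widespread chains of collagen IV, changed by -1.86 and -2.07, and Col4a5 by -2.58. Col12a1, another collagen gene, rose by 2.06. Among 15 integrin genes 3 were called higher and 5 lower. Itga9, a tenascin-binding integrin gene, read 21.5 and 20.5 CPM in the Q20 libraries and 251 and 306 CPM in the Q92 libraries (log2 change 3.66, SE 0.54, limma adjusted p = 0.00184), and Itga4, the alpha 4 integrin gene, changed by 3.39. Itga3 and Itga2, subunit genes of laminin and collagen receptors, fell by 2.53 and 2.37. Axon guidance genes were more often called lower, with 14 of 34 called lower (8 to 10 without any 1 library) and 2 higher. The netrin receptor gene Unc5c read 42.02 and 39.7 CPM in the Q20 libraries and 1.73 and 0.922 CPM in the Q92 libraries (log2 change -4.19, SE 0.44, limma adjusted p = 0.000282), and the Robo ligand gene Slit3 read 17.02 and 13.7 CPM in the Q20 libraries and 0.429 and 0.281 CPM in the Q92 libraries (log2 change -3.59, SE 0.17, limma adjusted p = 4.49e-06). Of 28 ion channel and receptor genes 10 were called lower and 3 higher. The sodium channel gene Scn3a changed by -3.52 and the AMPA receptor subunit gene Gria4 by -3.07, while Grin2a, an NMDA receptor subunit gene, read 2.00 and 1.23 CPM in the Q20 libraries and 13.9 and 13.9 CPM in the Q92 libraries (log2 change 2.53, SE 0.18, limma adjusted p = 3.7e-05). Interferon and antigen presentation genes were lower, with 11 of 21 called lower (7 to 10 without any 1 library), 0 higher and a median of -0.83. The RNA sensor gene Ifih1 read 12.1 and 12.4 CPM in the Q20 libraries and 0.380 and 0.594 CPM in the Q92 libraries (log2 change -3.16, SE 0.46, limma adjusted p = 0.00161), and Tapbp, a gene for peptide loading of MHC class I, changed by -1.54.

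Imprinted genes and chromatin genes held some large changes. Mest, a paternally expressed imprinted gene, read 329.7 and 378 CPM in the Q20 libraries and 2668 and 2539 CPM in the Q92 libraries (log2 change 2.88, SE 0.68, limma adjusted p = 0.0169), while Igf2, the growth factor gene, read 9.26 and 7.86 CPM in the Q20 libraries and 0.512 and 0.547 CPM in the Q92 libraries (log2 change -2.64, SE 0.17, limma adjusted p = 2.09e-05) and Snrpn, another imprinted gene, changed by -1.75. In all, 3 of 21 imprinted genes were called higher and 7 lower. Among 20 DNA methylation and Polycomb genes 4 were called higher and 2 lower. Cbx7, a Polycomb reader gene, read 27.99 and 33.9 CPM in the Q20 libraries and 1.75 and 2.75 CPM in the Q92 libraries (log2 change -3.31, SE 0.38, limma adjusted p = 0.000461), and Bmi1, which encodes another subunit of the same complex, changed by 1.05. Housekeeping lists differed in their share of calls. Of 32 ribosomal protein genes 4 were called higher (12.5%, beside 9.88% of all genes tested) and 0 lower. Their median of 0.33 became -0.0017 under quantile normalization. Rpl28, for example, read 464 and 424 CPM in the Q20 libraries and 626 and 703 CPM in the Q92 libraries (log2 change 0.58, SE 0.14, limma adjusted p = 0.0191). No proteasome gene of 27 was called by limma (2 had an unadjusted p under 0.05), while edgeR and DESeq2 called 0 and 1. The subunit genes Psmd2 and Psmd1 read 518 and 476 CPM in the Q20 libraries and 569 and 589 CPM in the Q92 libraries and, in the same order, 349.9 and 356 CPM and 384 and 363 CPM (limma adjusted p = 0.477 and 0.722). Of 28 oxidative phosphorylation genes none was called higher and 1 lower (Cox4i1, a cytochrome oxidase subunit gene, by -0.44). Of 22 glucose metabolism genes 3 were called lower (13.6%, beside 15.9% of all genes tested) and 0 higher. The list median was 0.25, and the list summed to 7003 and 6742 CPM in Q20 and 7434 and 8779 CPM in Q92. Among the called falls, the glucose transporter gene Slc2a3 read 91.4 and 174 CPM in the Q20 libraries and 36.97 and 38.02 CPM in the Q92 libraries (log2 change -1.72, SE 0.28, limma adjusted p = 0.00276). Among 25 autophagy and lysosome genes 4 were called lower (0 to 2 without any 1 library) and 0 higher, and the share called lower was close to the 15.9% of all genes tested. The largest called fall of the list was Wipi1, an autophagy gene, which read 54.03 and 52.8 CPM in the Q20 libraries and 10.3 and 12.4 CPM in the Q92 libraries (log2 change -2.14, SE 0.43, limma adjusted p = 0.00808). The autophagy and lysosome list had a median of -0.74. Both Q92 libraries lay below both Q20 libraries for 21 of its members, as they did for 35.7% of all genes tested. Summed over the list, the Q20 libraries held 3414 and 3452 CPM and the Q92 libraries 2086 and 2296 CPM. The wild-type libraries held 4072 and 2356 CPM. Of 23 cilium genes 1 was called higher and 1 lower. Of 3 tested genes marking microglia, endothelium or blood, Cd68 and Tek were called higher at low levels, with Cd68 at 2.24 and 2.31 CPM in the Q20 libraries and 3.34 and 3.78 CPM in the Q92 libraries. The Y-linked genes Ddx3y and Uty were present in both lines. Ddx3y read 72.3 and 88.7 CPM in the Q20 libraries and 87.6 and 84.1 CPM in the Q92 libraries and Uty read 60.3 and 72.5 CPM in the Q20 libraries and 53.4 and 53.6 CPM in the Q92 libraries. Kdm5d held 0.273 and 0.257 CPM in the Q20 libraries and 0.215 and 0.188 CPM in the Q92 libraries, and Eif2s3y was called lower (log2 change -0.69, SE 0.19, limma adjusted p = 0.0278).

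**Figure D4:**
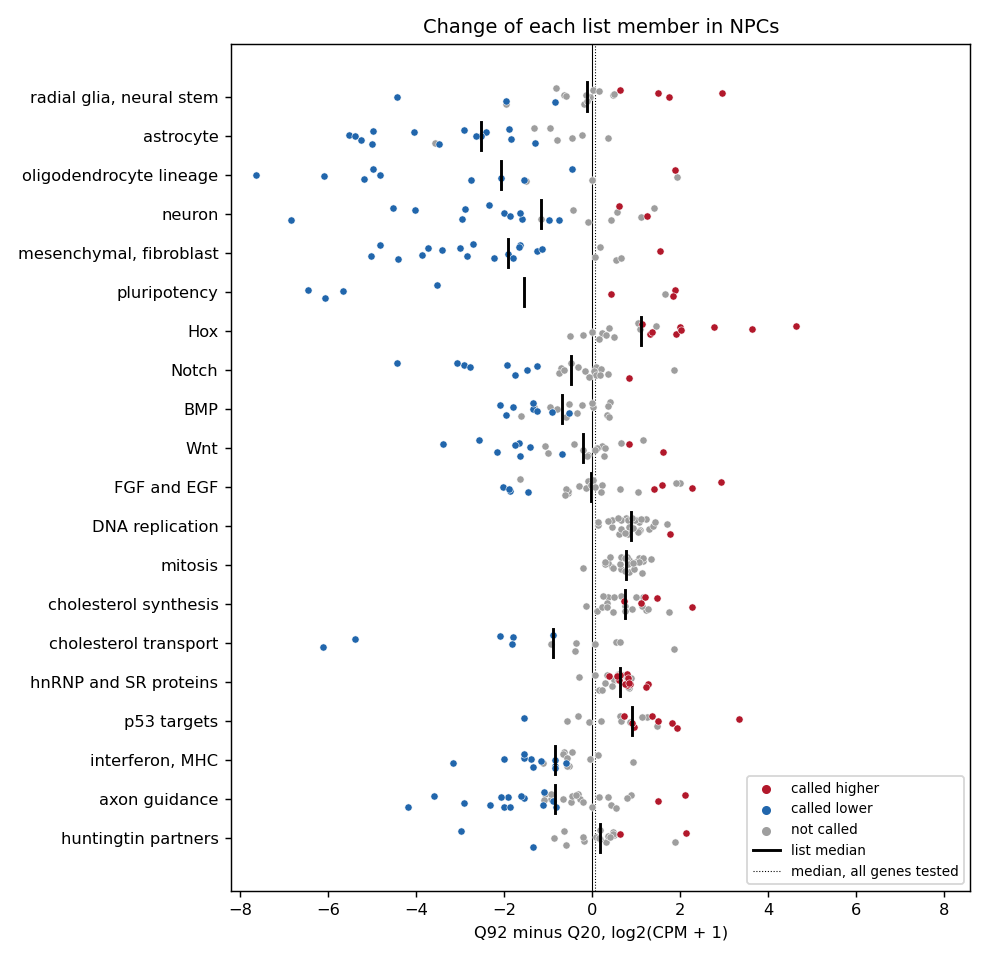
Change of every tested member of 20 gene lists (points; Q92 minus Q20 in log2(CPM + 1); red called higher, blue called lower, grey not called), with the list median as a bar and the median of all genes as a dotted line. The astrocyte list centres on -2.53 and the oligodendrocyte lineage list on -2.06, whereas the replication list lies around 0.90 with 1 called member.

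The genes of chromosomes 8 and 11 were lower in Q92 as a group. Their median changes were -0.19 over 708 genes and -0.18 over 1069 genes, while the medians of the other autosomes and X lay between 0.03 and 0.21. On chromosome 8, 150 genes were called lower (21.19% of those tested) and 25 higher (3.531%). On chromosome 11 the counts were 226 lower (21.14%) and 33 higher (3.087%). Of all genes tested, 15.9% were called lower and 9.88% higher. The other autosomes and X had 12.01% to 19.06% called lower and 8.07% to 14.85% called higher. The share called lower was thus only moderately raised, and the share called higher was reduced. Per library, against the mean of the 12 NPC libraries and the autosomal median, chromosome 8 read 0.09 and 0.06 in Q20 and -0.22 and -0.24 in Q92 (log2). In mESCs it read 0.09 and 0.14 in Q20 and 0.06 and 0.06 in Q92, so the low chromosome 8 level of the Q92 line was present in NPCs and not in its mESC libraries. The wild-type libraries were low in both, at -0.29 and -0.26 in NPCs and -0.36 and -0.29 in mESCs. Chromosome 11 read 0.16 and 0.16 in Q20 NPCs and -0.11 and -0.09 in Q92 NPCs. In mESCs the values were 0.23 and 0.33 in Q20 and -0.14 and -0.04 in Q92, so this difference was present in both cell types. Q111 shared the high level, at 0.35 and 0.33 in NPCs. The most abundant called genes of chromosome 8 were Ncan, a brain proteoglycan gene, at 1971 and 1896 CPM in the Q20 libraries and 486 and 509 CPM in the Q92 libraries (log2 change -1.96, SE 0.38, limma adjusted p = 0.00735), Cpe, which encodes carboxypeptidase E and changed by -2.22, and Itgb1, which rose by 0.58. On chromosome 11 they were Ddx5, an RNA helicase gene that rose by 0.32, Aldoc, a glycolytic enzyme gene on the astrocyte list that changed by -1.85, and Sept9, a septin gene that rose by 1.12. Agt, Enpp6, Tubb3, Sfrp1, Col4a1 and Col4a2 among the genes above lie on chromosome 8, and Hoxb9, Itga3 and Slit3 on chromosome 11. These are examples and not every gene above on these chromosomes, so they do not give the balance of rises and falls. DNA copy number was not measured, and its part in these values was not tested.

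**Figure D5:**
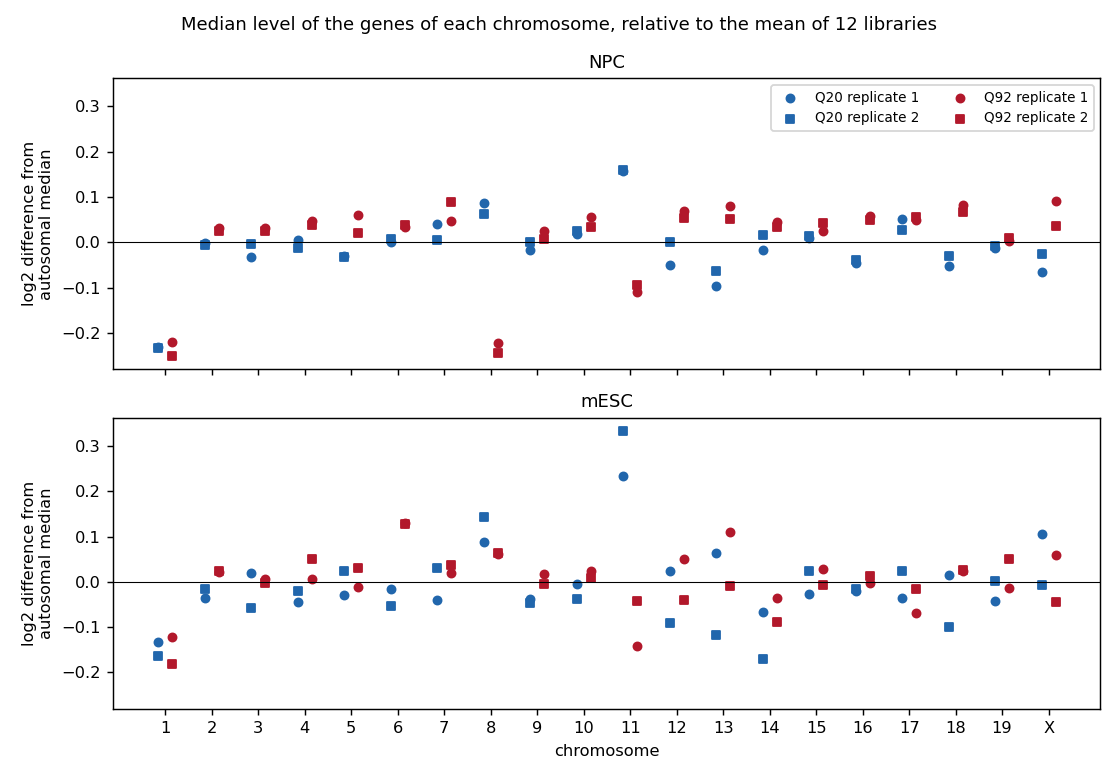
Median level of the genes of each chromosome (at least 5 CPM on average) in each Q20 (blue) and Q92 (red) library, as the log2 difference from the mean of the 12 libraries of that cell type and from the library's autosomal median; circles are replicate 1 and squares replicate 2. Chromosome 8 separates the lines in NPCs, at -0.22 and -0.24 in Q92, and chromosome 11 separates them in both cell types.

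In mESCs far fewer genes were called between the same genotypes. In mESCs 1 of 13916 genes was called (0.00719%, limma), with 747 at an unadjusted p under 0.05. This was Rhox5, an X-linked homeobox gene. The mESC libraries of the same replicate number deviated together in all 6 genotypes, and with a replicate block 64 mESC genes were called, Rhox5 among them (0.46%), 18 higher and 46 lower in Q92. Whether a change differed between the cell types was tested directly as NPC change minus mESC change: 734 of 12321 genes were called (5.96%), 181 with a more positive change in NPCs and 553 with a more negative one. With a replicate block within each cell type 1801 were called (14.6%), 607 and 1194, and they included all of the former. The 3 named genes with the smallest adjusted p were Stmn2, Sulf1 and Nxf3. Stmn2 changed by -6.85 in NPCs and by 0.49 in mESCs, and Sulf1, a heparan sulfatase gene, read 89.98 and 90.7 CPM in the Q20 libraries and 1.02 and 1.22 CPM in the Q92 libraries in NPCs and changed by 0.01 in mESCs. Nxf3 changed by -1.41 in mESCs, in the same direction as in NPCs, and this mESC change was called with the block (limma adjusted p = 0.0328). The 2 comparisons share no library. Genes called higher in NPCs had a positive mESC change in 64.3% of 1234, and genes called lower in 39.3% of 1805. Over all 12321 genes tested in both the share was 53.3%. Across these genes, which are not independent replicates, the NPC and mESC changes correlated weakly (Pearson r = 0.131, Spearman rho = 0.152). Without chromosomes 8 and 11 r was 0.123 over 10630 genes.

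For part of the called genes, the other genotypes show which of the 2 lines departed. Among the 2102 genes called lower, both Q20 libraries lay outside the range of the 8 wild-type, knockout, Q50 and Q111 NPC libraries for 854, both Q92 libraries did for 470, both groups did for 270, and neither did for 508. Among the 1305 called higher the counts were 412 for Q20, 364 for Q92, 151 for both and 378 for neither. Over all genes tested Q20 alone stood outside for 15.9%, Q92 alone for 13.3%, both for 5.65% and neither for 65.1%. Among called falls Q20 alone stood outside for 40.6% and Q92 alone for 22.4%. Among called rises these shares were 31.6% and 27.9%. For the pluripotency list 4 of 7 called members had Q20 alone outside, and for the Hox list 5 of 9 had Q92 alone outside. In the astrocyte list Q92 alone stood outside for 5, Q20 alone for 1, both for 4 and neither for 4 of 14.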

How the data were processed

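RNA from 24 libraries (NPCs and mESCs of 6 genotypes, 2 each) was sequenced as 75 bp paired-end reads, per the labels' protocols. CASAVA 1.8, STAR and the build GRCm38.p6 are named in the submitters' processing notes; the counting program and its strand setting are not given in the sources used here. The deposited values are a signal scaled by the authors and named CPM, 1 table per cell type, whose columns do not sum to a common total. Of the values, 100% were a whole number of reads times 1 step per library (within 0.01 read), so reads per library could be recovered.

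Groups came from the labels. Genes with at least 1 CPM in at least 2 of the 12 NPC libraries were tested with limma 3.58.1 (R 4.3.3) on log2(CPM + 1), with 1 mean per genotype, a mean-dependent prior and Benjamini-Hochberg adjustment over all tested genes. The mESC table and the difference of changes were fitted likewise. The labels give replicate numbers with no statement of a shared batch. In mESCs the replicate differences correlated in all 15 pairs of genotypes (Pearson r = 0.250 to 0.547 across genes), so mESC results are also given with a replicate block, whereas in NPCs Q20 and Q92 did not correlate. Using all 12 libraries gives 1 shared spread. Alternatives were a fit to 4 or 8 libraries, pseudocounts of 0.5 and 0.1, no filter, a mean of 5 CPM, median-of-ratios, quantile and common-total scaling, edgeR 4.0.16 and DESeq2 1.42.0 on recovered reads, a replicate block and leaving out each library. The procedure was tested on simulated data.

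The libraries and gene lists were chosen with earlier results of these data known. Genes named were Htt, the 12 largest rises and falls (called, non-overlapping groups, at least 5 CPM in the higher group, its replicates within 2-fold, protein coding, at least 2 exons, no Gm or Rik name), up to 4 called members with the largest change per list (the 2 most abundant where none was called), 3 genes for the difference between cell types, up to 3 abundant genes per chromosome that stood apart, and all sex chromosome members. Not every gene the rules name is reported here. The following were chosen after their values were seen: Acsbg1, Bax, Cdh2, Cspg4, Elavl4, Etv5, Fabp7, Fgfr1, Gfap, Hes1, Hey1, Heyl, Klf4, Map2, Mdm2, Notch1, Notch2, Olig2, Ptprz1, Slc1a3, Spry1, Trp53 and Vim. Annotation was GENCODE M21 on GRCm38, matched for 99.82% of NPC genes. Of 171 genes given values, 93 overlap another annotated gene, and reads shared with the neighbour could not be separated.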

Additional observations from a re-analysis of the deposited data

Results flagged for a closer look

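For 64 of the genes given values, the Q92 minus Q20 change differed between NPCs and mESCs in a test of the difference itself (limma, adjusted p under 0.05, 2 libraries a group, both cell types tested in 1 fit over all 24 libraries). The values that follow are the NPC change minus the mESC change in log2(CPM + 1), so a negative value means a more negative change in NPCs. With a replicate block within each cell type 104 of the genes given values were called, all of these among them. Over all 12321 genes tested in both cell types 734 were called (5.96%), and 1801 with the block (14.6%). Most genes given values were picked for being called with a large NPC change. A difference was therefore favoured in advance, and the counts do not describe genes at large. Groups of 2 libraries are too small for a check of single outlying libraries. The 2 tables were scaled separately, so levels are not compared across them.

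More negative changes in NPCs were the larger group. Pluripotency and silenced genes gave differences of -6.69 for Pou5f1, -6.33 for Lin28a, -5.91 for Sall4, -3.95 for Nanog, -4.01 for Dnmt3b, -2.60 for Eomes and -4.72 for Nxf3. Astrocyte, oligodendrocyte and neuronal genes gave differences of -5.07 for Aldh1l1, -5.26 for Apoe, -4.39 for Slc1a2, -4.64 for Gfap, -5.73 for Pdgfra, -5.08 for Mbp, -7.34 for Stmn2 and -2.70 for Nefl. Mesenchymal, contractile and collagen IV genes gave differences of -4.61 for Col3a1, -4.81 for Col1a2, -4.33 for Col6a1, -3.22 for Col6a2, -1.55 for Col4a1, -1.70 for Col4a2, -3.21 for Des, -2.10 for Myl9 and -2.25 for Tpm2. Signalling, lipid and axon guidance genes gave differences of -2.23 for Dll3, -2.25 for Jag2, -3.34 for Dkk3, -5.61 for Abca1, -2.18 for Lrp1, -3.47 for Ntrk2, -3.95 for Unc5c, -3.11 for Slit3 and -5.44 for Sulf1. Ion channel, membrane and metabolic genes gave differences of -5.10 for Scn3a, -2.21 for Gria4, -1.96 for Itpr3, -2.48 for Slc2a3, -2.69 for Itga2, -6.21 for Mmd2 and -2.30 for Cpe. Imprinted, chromatin and other genes gave differences of -3.15 for Igf2, -1.62 for Snrpn, -3.75 for Cbx7, -3.14 for Sh3gl3 and -1.18 for Eif2s3y. For Nxf3 the mESC change was itself negative, at -1.41, whereas for Stmn2 it was 0.49.

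More positive changes in NPCs were found for the remaining genes. The larger differences were 4.46 for Ccnd1, 4.42 for Papln, 4.13 for Tmem173, 4.09 for Plk2, 3.96 for Fem1b, 3.90 for Fndc1, 3.62 for Cemip and 3.47 for Itga4. Smaller ones were 3.28 for Tsnax, 3.21 for Nes, 3.13 for Cdon, 3.06 for Hip1, 2.62 for Rbm24, 2.38 for Grin2a, 2.35 for Hoxa10, 2.31 for Col12a1, 1.75 for Cspg4, 1.53 for Sept9 and 1.25 for Kdm5d. For Kdm5d, which was near 0 CPM in both NPC groups, the NPC change was -0.08 and the mESC change -1.33, so the difference came from the mESC values.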

How the results depend on the processing

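The count of 3407 called genes became 6160 with only the 4 libraries of the 2 lines and 6545 with the 8 knock-in libraries, where the wild-type and knockout pairs do not enter the spread, and 2077 with a mean of at least 5 CPM, where fewer genes were tested. Without 1 library it was 1618 to 1882. On recovered reads edgeR called 3162 and DESeq2 4551. Calls higher in Q92 numbered 3133 with the 4 libraries, 3344 with the 8 and, rescaled to a common total (an alternative chosen after seeing the data), 693, or 420 to 530 without 1 library. Calls lower numbered 3201 with the knock-in libraries, 1031 with the mean filter and 1195 to 1356 without 1 library, and calls of at least 2-fold 1132 with the mean filter. For mESCs the count of 1 became 0 with only 4 libraries and 0 to 2 without 1 library. The count for the difference between NPCs and mESCs was 352 to 588 without 1 library.

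The NPC replicate numbers of Q20 and Q92 did not deviate together (Pearson r = -0.025 across genes), so these samples share only a number. Of 15 pairs of NPC genotypes 3 had a correlation over 0.1, 0.467 for knockout with wild type, 0.170 for Q50 with wild type and 0.106 for knockout with Q50. The wild-type and knockout libraries enter the shared spread. The labels name no batch, and its part was not tested. With a replicate block the NPC count was 3561, the mESC count 64 and the count for their difference 1801.

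The chromosome 8 median minus that of all genes, -0.248, was -0.282 with a pseudocount of 0.1, -0.159 without a filter, -0.301 with the mean filter, -0.273 under quantile normalization, -0.293 with edgeR, -0.293 with DESeq2 and -0.286 to -0.253 without 1 library. For chromosome 11, -0.245, these were -0.144 without a filter, -0.275 under quantile normalization, -0.287 with edgeR, -0.287 with DESeq2 and -0.275 to -0.235 without 1 library.

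Directions turned for genes that were not called. Under quantile normalization and a common total, in this order, the changes were -0.070 and -0.052 for Htt, -0.064 and -0.0042 for Psmd2, -0.19 and -0.15 for Psmd1, -0.082 and -0.13 for Ddx3y, -0.21 and -0.14 for Notch1, and -0.0062 and -0.025 for Notch2. Kdm5d became 0.35 under quantile normalization. Leaving out 1 library turned the sign of Ddx3y (range -0.047 to 0.24, negative without Q20 replicate 1), Fgfr1 (-0.065 to 0.024, positive without Q92 replicate 1), Spry1 (-0.078 to 4.07) and Ptprz1 (-0.26 to 0.027), the last pair without Q92 replicate 2.

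List medians turned in the following cases. With the mean filter they were 0.25 for contractile, 0.065 for Wnt, 0.14 for FGF and EGF and 0.15 for imprinted genes. Under quantile normalization they were 0.11 for FGF and EGF, -0.16 for oxidative phosphorylation, -0.0017 for ribosomal and -0.064 for proteasome genes. With a common total they were -0.19 for Hedgehog, -0.12 for REST, -0.046 for huntingtin partners, -0.13 for oxidative phosphorylation, -0.20 for calcium entry and -0.021 for proteasome genes. Median-of-ratios scaling, edgeR and DESeq2 gave -0.048, -0.072 and -0.062 for Hedgehog and -0.045, -0.048 and -0.039 for calcium entry. Leaving out 1 library gave -0.22 to 0.23 for Hedgehog (negative without Q92 replicate 1 or Q20 replicate 2), -0.055 to 0.024 for FGF and EGF (positive without Q92 replicate 1) and -0.14 to 0.25 for calcium entry (negative without Q92 replicate 2). The mean filter left no early lineage and no microglial, endothelial or blood gene to test.

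Of 154 called genes given values, 56 lost the call without at least 1 of the 4 libraries, and these 36 lost it whichever was left out: Apln, Aqp4, Areg, Bmpr1b, Ccnd1, Cd68, Cdk4, Cox4i1, Ddx5, Disc1, Dusp6, Eif2s3y, Etv5, Fem1b, Fgfr3, Hes5, Hey1, Hey2, Hmgcs1, Hnrnpa2b1, Hnrnpf, Hspa5, Lrp1, Mdm2, Mest, Nes, Ntrk3, Plk2, Pola1, Rcor1, Rpl28, Slc1a3, Sqle, Tmem173, Trp53 and Tsnax. Over all 208 genes named by rule or printed, 27 lost the call under quantile normalization, 24 with a common total, 12 with edgeR and 3 with DESeq2. The causes of these shifts were not tested. Levels far below 1 CPM rest on few reads, so changes against such levels are uncertain in size.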

Other observations

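Some genes switched between replicates. In Q20, 28 genes differed at least 20-fold between the 2 libraries with the higher one at 20 CPM or more, and in Q92 31 did. Of the 53 genes in either line, 23 are annotated with a single exon, beside 254 of all 16024 genes in the table. The genes named here were chosen after their values were seen. Hist1h1e, a linker histone gene, read 601 and 0 CPM in the Q20 libraries and 891 and 913 CPM in the Q92 libraries. Arf6, a small GTPase gene, read 114 and 0.0643 CPM in the Q20 libraries and 0.149 and 206 CPM in the Q92 libraries. Gja1, which encodes the gap junction protein connexin 43 and is on the astrocyte list, read 308 and 275 CPM in the Q20 libraries and 1.95 and 205 CPM in the Q92 libraries.

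Single-exon genes also gave extreme differences between the lines. Gm11808 read 752 and 709 CPM in the Q20 libraries and 0 and 0 CPM in the Q92 libraries, with 516 to 864 CPM in the other 8 NPC libraries, so it was at 0 in the Q92 libraries alone. Mgat2, a glycosyltransferase gene, read 0 and 0 CPM in the Q20 libraries and 72.6 and 75.8 CPM in the Q92 libraries. Its Q111 libraries read 0 and 82.6 CPM, so a value of 0 also occurred within a pair. Hist3h2a, a histone gene, read 189.8 and 182 CPM in the Q20 libraries and 0 and 0 CPM in the Q92 libraries, and its wild-type libraries read 0.280 and 110.1 CPM. Such genes were kept out of the largest rises and falls by the condition of at least 2 exons.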
